A study of Sus scrofa with 32 samples.

Results

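The H3K27ac sites described here are the regions of the pig genome that carried an H3K27ac peak only in cells given the inhibitor SGC-CBP30. They were found by merging the peaks of 8 H3K27ac libraries wherever they overlapped by at least 1 bp, which gave 39013 regions. A region was kept when both libraries of treated cells at 0 h, or both at 60 h, held a peak there and none of the 4 libraries of untreated cells did. This left 1463 CBP-only regions, of which 488 were chosen at 0 h (1.25% of all regions) and 1008 at 60 h (2.58%), with 33 chosen at both times.

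The cells were porcine muscle satellite cells, a stem cell population of skeletal muscle, and histone marks were mapped by CUT&Tag, in which an antibody brings a transposase to the marked histone and the DNA around it is cut and tagged. The treated cells (called CBP in the labels) received SGC-CBP30 and the untreated cells are called WT, and both were sampled in proliferation (0 h) and after 60 h of differentiation, with 2 libraries for each group and mark. The labels give 48 h of treatment for proliferation and 60 h for differentiation, and a dose of 5 uM/ml, a unit that cannot be resolved from them. H3K4me3, H3K27ac and H3K27me3 were profiled, 24 libraries in all; a further 8 IgG samples were not analysed here. Parts of the labels disagree: C3H cells are named as the cell line and in the growth protocol of samples whose other fields say pig and satellite cell, and proliferation is the stated treatment stage even at 60 h. Nothing says that the 2 libraries of a group came from separate cultures, so every spread given is between libraries.

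Acetylation of lysine 27 on histone H3 marks active promoters and enhancers and is written by the acetyltransferases CBP and p300. SGC-CBP30 occupies the bromodomains of these enzymes, the modules through which they bind acetylated histones. H3K4me3 is found at active promoters, and H3K27me3 marks genes silenced by Polycomb complexes. In satellite cells, enhancers of muscle genes gain H3K27ac as the cells leave the cell cycle and fuse.

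Each library has 1 peak list made by the authors, with read depth not given in the sources used here. H3K27ac lists held 10972 and 8969 peaks in CBP cells at 0 h, against 19531 and 17338 in WT cells. At 60 h they held 17019 and 13750 peaks in CBP cells, against 23437 and 21694 in WT cells. Of genes that mark satellite cells and myoblasts, 9 of 9 had H3K4me3 within 5 kb of a gene end in both WT libraries at 0 h, and of genes of differentiating muscle 0 of 8 did at 0 h and 8 of 8 at 60 h. Markers of other cells were mostly without H3K4me3 there. In both WT libraries of 0 h and in both of 60 h, 1 and 2 of 8 endothelial and blood genes, 1 and 2 of 5 neuronal and glial genes, 2 and 2 of 5 epithelial genes and 0 and 0 of 4 adipocyte genes had it. The defining markers PECAM1, CDH5, PTPRC, EPCAM and KRT5 had no listed base in any WT library.

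In the lists as deposited, CBP-only regions were fewer than regions of the opposite kind. Regions with the mirror pattern, a peak in both WT libraries of a time and in no CBP library, numbered 3890 at 0 h (9.97% of all regions) and 5599 at 60 h (14.4%). The CBP lists were also the shorter ones. With all 8 lists cut to the length of the shortest, the rule gave 1557 CBP-only regions at 0 h against 1487 with the mirror pattern, and 1099 against 1661 at 60 h, so the order at 0 h turned with list length. Among the regions that both CBP libraries shared, CBP-only regions made up 488 of 7520 at 0 h (6.49%) and 1008 of 9846 at 60 h (10.2%). These counts are set by the rule and carry no test. The counts also depend on how many libraries the rule asks for. With 1 CBP library of a time left out, it asks for a peak in the other only, so a higher count follows from the rule. Without replicate 2 of CBP 0 h it gave 1062 regions at 0 h. Without replicate 1 or replicate 2 of CBP 60 h it gave 2029 or 3303 at 60 h. All 488 and all 1008 original regions still met it in these settings.

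CBP-only regions held weak peaks. The median −log10 q of the authors' caller, a measure of a peak's significance within its own library, was 2.64 and 2.62 in the CBP 0 h libraries and 3.77 and 4.05 in the CBP 60 h libraries. Ranked within its own list, the median peak stood at percentile 25.9 and 26.8 at 0 h and at 39.1 and 35.3 at 60 h. Only 39 of the 488 regions at 0 h (7.99%) had a −log10 q of at least 5 in both CBP libraries, against 2264 of 7032 other regions shared by both (32.2%). At 60 h the counts were 140 of 1008 (13.9%) and 4328 of 8838 (49.0%). The regions were also short, with a median of 490.5 bp at 0 h and 614.5 bp at 60 h, against 1119 and 1275 bp for the other regions in both CBP libraries. With lists cut to equal length, 394 of the 488 regions of 0 h and 266 of the 1008 of 60 h still met the rule. These strengths belong to the H3K27ac peaks that chose the regions and are given as a description.

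**Figure D1:**
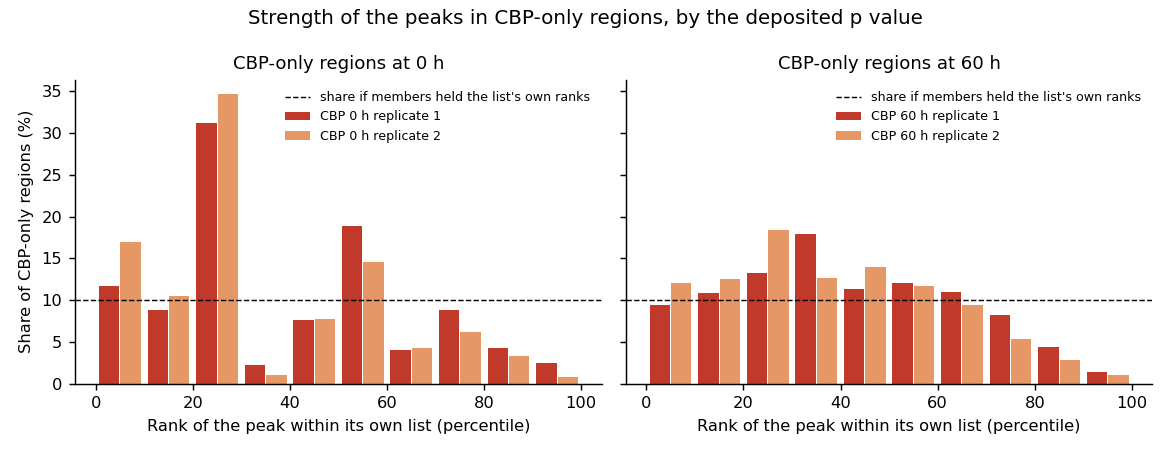
Share of CBP-only regions (%, vertical axis) by the rank of their peak within its own deposited list (percentile of the −log10 p, horizontal axis), with 1 bar for each of the 2 CBP libraries (treated with SGC-CBP30) of a time and a dashed line at the share that evenly spread ranks would give. Most peaks of CBP-only regions lie in the lower ranks of their lists, with medians of 25.9 and 26.8 at 0 h and 39.1 and 35.3 at 60 h.

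Near the threshold of the rule, some CBP-only regions stood beside a WT peak. The smallest gaps to a WT peak were 16 bp, 52 bp and 56 bp at 0 h, the first near IGF1R and the second near HELLS, and 25 bp, 25 bp and 31 bp at 60 h, near BPGM, NFIL3 and DGKD. A gap under 500 bp was found for 38 regions at 0 h (7.79%) and 113 at 60 h (11.2%), and the median gap was 10.4 kb and 6.65 kb. Just outside the rule were 383 regions at 0 h and 594 at 60 h with peaks in both CBP libraries and in a single WT library. A further 754 regions at 0 h and 3190 at 60 h had a peak in 1 of the 2 CBP libraries and in no WT library.

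The CBP-only regions of 0 h and those of 60 h were largely different places. Of the 488 regions of 0 h, 64 and 49 had a peak in the CBP 60 h libraries, which the choice at 0 h did not use, and 80 (16.4%) had one in either. The same held for 55.9% of the other regions that both CBP 0 h libraries shared. Of the 1008 regions of 60 h, 56 and 38 had a peak in the CBP 0 h libraries, and 61 (6.05%) in either, against 42.8% of the other shared regions. The comparison rests on peaks that were weaker in the CBP-only regions to begin with, and the part of peak strength in it was not tested.

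Most CBP-only regions lay away from gene ends. The gene table gives no strand, so the start and the end of a gene were not told apart and distances are to the nearer of them. The median distance was 33.8 kb at 0 h and 22.6 kb at 60 h. The other regions shared by both CBP libraries had medians of 22.9 kb and 10.3 kb, and the WT-only regions of 18.9 kb and 5.21 kb. Within 1 kb of a gene end stood 38 CBP-only regions at 0 h (7.80% of the 487 on placed chromosomes) and 142 at 60 h (14.1% of 1004), against 19.3% and 31.3% of the other shared regions. Within 5 kb the counts were 83 (17.0%) at 0 h and 246 (24.5%) at 60 h, against 28.3% and 41.9%.

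The 2 times differed in where the distant regions sat. At 60 h 75.4% of CBP-only regions overlapped a gene body, and 55.9% lay inside a gene and over 5 kb from its ends, against 76.9% and 39.8% of the other shared regions of 60 h. At 0 h 258 of 487 overlapped a gene body and 43.3% lay inside a gene over 5 kb from its ends, against 65.3% and 42.0% of the other shared regions of 0 h. Regions over 100 kb from any gene end made up 21.6% of the CBP-only set at 0 h and 12.8% at 60 h. Of the other shared regions, 1229 of 7011 at 0 h and 969 of 8803 at 60 h lay that far. Of WT-only regions 16.6% and 8.80% did, and 61.7% and 72.3% overlapped a gene body. Neither change with time is thus particular to CBP-only regions. Among the 3 sets, the share inside a gene over 5 kb from its ends rose only in the CBP-only set. In WT-only regions it was 38.7% at 0 h and 32.1% at 60 h. The sets were defined by peaks in the same libraries, so the shares are descriptions without a test.

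**Figure D2:**
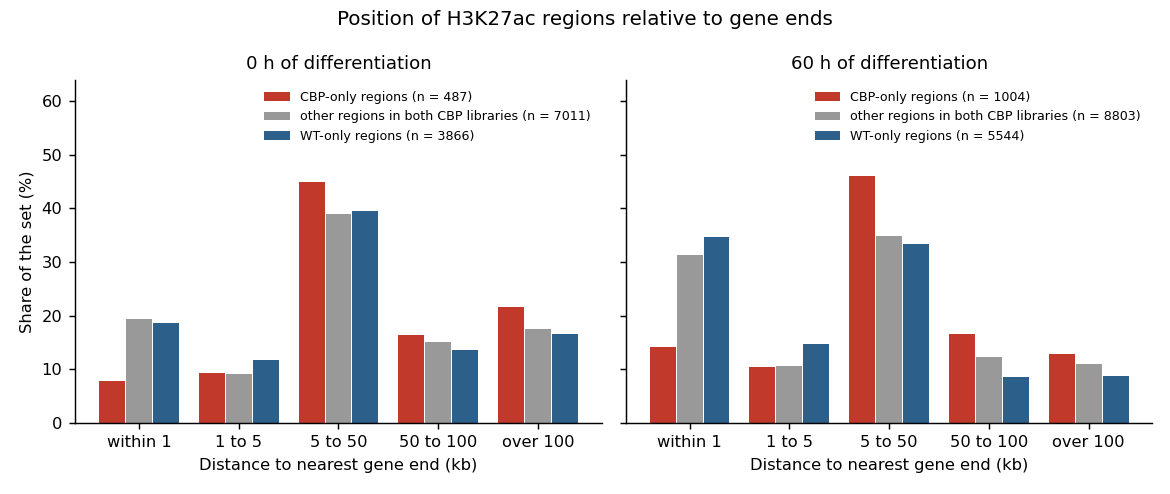
Share of each set of H3K27ac regions (%, vertical axis) by distance to the nearest protein-coding gene end (kb, horizontal axis), for CBP-only regions (treated cells only), other regions with peaks in both CBP libraries, and WT-only regions (untreated cells only), at 0 h and 60 h. CBP-only regions have the smallest share within 1 kb of a gene end, 7.80% at 0 h and 14.1% at 60 h.

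Among the CBP-only regions of 0 h within 5 kb of a named gene, those with the best rank in their worse library were near HSPH1, HSPA12B, TBCE, RBM4B, S100A10, KCTD4, RET, ADTRP, NOB1, SPRED1, OIP5 and ARHGAP25. The HSPH1 region (chr11:7759427-7760165, Sscrofa11.1) covered a gene end of this heat shock chaperone. Its peaks were enriched 10.8-fold and 7.27-fold over the local background in the CBP 0 h libraries, by the authors' caller as for all enrichments given here, at percentiles 97.8 and 83.0 of their lists. No peak was listed there in either CBP 60 h library, and the nearest WT peak was 92.9 kb away. H3K4me3 within 1 kb of it, however, was present in every library, with 1887 and 1970 bp in CBP cells and 2015 and 2161 bp in WT cells at 0 h. The promoter mark was thus listed around this gene end in both conditions.

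HSPA12B, a member of the HSP70 family, had a region 3.61 kb from a gene end (chr17:31983875-31984561) enriched 7.26-fold and 6.37-fold in the CBP 0 h libraries, and the nearest WT peak was 37.9 kb away. The S100A10 region (chr4:97260790-97261058) was 269 bp long and 0.913 kb from a WT peak, with 5.85-fold and 5.90-fold enrichment. S100A10 encodes a partner of annexin A2 at the cell membrane. SPRED1, an inhibitor of Ras to MAP kinase signalling, had a region (chr1:133017138-133017693) with 5.07-fold and 5.33-fold enrichment at 0 h and also a peak in both CBP 60 h libraries, 4.66-fold and 4.23-fold, which makes it 1 of the 33 regions in all 4. It stood 0.420 kb from a WT peak.

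At 60 h the corresponding genes were RET, OLFML2B, ENAH, FOPNL, GSG2, SRPRB, GHDC, P2RY1, AKAP13, ALKBH6, C2H11orf74 and SDR42E2. The region inside RET, the receptor tyrosine kinase for ligands of the GDNF family, lay 0.435 kb from a gene end (chr14:61360004-61360980) and was also 1 of the 33. Its enrichment was 5.58-fold and 5.64-fold in the CBP 0 h libraries and 10.1-fold and 12.9-fold in the CBP 60 h libraries, and the nearest WT peak was 40.4 kb away. Across RET and 50 kb on either side, H3K27ac peaks covered 1.90 and 1.29 kb in CBP cells at 60 h and 0 kb in both WT libraries. At 0 h they covered 0.952 and 0.574 kb in CBP cells, against 1.93 and 1.80 kb in WT cells, where 3 regions in both WT libraries had no CBP peak. The locus thus held other sites in untreated cells at 0 h and none at 60 h.

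ENAH, which promotes the growth of actin filaments, had the longest CBP-only region at 60 h, 1849 bp (chr10:13604887-13606735), enriched 8.36-fold and 8.15-fold and 0.972 kb from a WT peak. OLFML2B, which encodes a secreted olfactomedin-domain protein, had a region across a gene end (chr4:88521920-88522821) enriched 9.08-fold and 10.3-fold. A WT peak lay 0.235 kb from it, and H3K4me3 within 1 kb of it covered 2398 and 2338 bp in CBP cells and 2314 and 2114 bp in WT cells at 60 h. AKAP13, an anchoring protein of protein kinase A, had a region 0.324 kb from a gene end (chr7:88223179-88223998) with 8.95-fold and 7.27-fold enrichment, 10.3 kb from a WT peak.

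The 33 regions found in all 4 CBP libraries lay at a median of 41.5 kb from a gene end, and 22 overlapped a gene body. Among those of best rank were regions 68.7 kb from GADD45A, a p53 target that responds to DNA damage, and 27.2 kb from SRSF3, a splicing factor. The SRSF3 region (chr7:32325840-32327048) was enriched 7.68-fold and 6.42-fold at 0 h and 6.10-fold and 5.56-fold at 60 h. Regions of the immediate early genes MAFF and KLF2, both transcription factors that respond quickly to signals, were also among the 33. The MAFF region (chr5:9694378-9695259) lay inside the gene, 0.868 kb from an end and 0.647 kb from a WT peak. In PSD3 the region (chr17:12920833-12921460) was enriched 6.84-fold and 5.10-fold at 0 h and 4.38-fold and 13.1-fold at 60 h, so the libraries of 60 h differed widely.

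Some CBP-only regions lay close together. Of the 1004 on placed chromosomes at 60 h, 295 (29.4%) lay within 50 kb of another, and at 0 h 34 of 487 did (6.98%). Of the other shared regions, 67.7% of 8803 at 60 h and 62.5% of 7011 at 0 h lay within 50 kb of another of their own set. The sets differ in size, and a larger set has closer neighbours, so the shares show no grouping particular to CBP-only regions or to 60 h. At 60 h 52 genes had at least 3 CBP-only regions within 50 kb of an end. Of these genes 30 counted a region in common with another of them, so the 52 stand for 32 separate places, the largest being 7 neighbouring genes from SUFU to BORCS7 on chromosome 14. In the gene body, 40 genes held at least 3. At 0 h a single gene, DCBLD2, had 3 near its ends, and another, DST, held 3 in the body.

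INPP4A, a phosphatase of phosphoinositides, had the most near its ends, 5 regions. Here and at the loci below, genes were named for their CBP-only regions, so a greater covered length in CBP cells at the time of those regions restates the choice and is a description only. H3K27ac across INPP4A and 50 kb on either side covered 15.8 and 10.1 kb in CBP cells at 60 h, against 8.61 and 7.58 kb in WT cells. At 0 h it covered 2.82 and 2.33 kb in CBP cells, against 5.57 and 5.57 kb in WT cells. The groups did not overlap at 0 h, when no CBP-only region stood there. The whole H3K27ac lists of 0 h also covered less in CBP cells, 6.30 and 4.77 Mb against 13.0 and 11.6 Mb in WT cells. The lower length at 0 h is thus not particular to this locus. TANC1, a scaffold protein whose fly relative acts in myoblast fusion, and TRIO, a guanine nucleotide exchange factor, each held 6 CBP-only regions in the gene body at 60 h. Around TANC1 the covered length was 24.6 and 20.7 kb in CBP cells, against 11.7 and 8.46 kb in WT cells at 60 h, and all 7 regions shared by both WT libraries there were present in both CBP libraries. Around TRIO it was 41.9 and 35.8 kb in CBP cells, against 34.6 and 28.8 kb in WT cells.

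HS6ST1, which adds sulfate to heparan sulfate, had 4 CBP-only regions at 60 h. H3K27ac around it covered 8.10 and 4.98 kb in CBP cells and 1.85 and 1.19 kb in WT cells, and 1 region was shared by both WT libraries. CTSB, the lysosomal protease cathepsin B, also had 4, with 11.3 and 9.89 kb in CBP cells against 6.55 and 4.48 kb in WT cells. ZMIZ1, a coactivator of the PIAS-like family, held 5 in the body. Around ZMIZ1 the CBP and WT libraries overlapped, with 47.8 and 37.8 kb against 43.1 and 40.2 kb. At these loci most WT regions were kept, so CBP-only regions stood among shared ones.

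To see which genes lay nearest, each region was given the nearest gene within 50 kb. Over the 10404 genes nearest to any H3K27ac region, 293 (2.82%) were nearest to a CBP-only region of 0 h and 592 (5.69%) to one of 60 h. At 60 h the list of TGF-beta, BMP and activin genes had 9 of 33 (27.3%). They were the receptors ACVR2A, TGFBR1 and TGFBR2, the ligand TGFB3, the signal transducer SMAD1, the inhibitors SMAD6 and SKI, the secreted modulator FSTL1 and the protease BMP1. The TGFBR2 regions lay 0.370 kb from a gene end (chr13:16874974-16875457, 8.09-fold and 5.83-fold) and 7.53 kb inside the gene, and WT peaks were 0.288 kb and 0.732 kb away. Genes of this list had many H3K27ac regions, a median of 5 per gene against 2 over all genes. Counted per region, 10 of their 273 regions (3.66%) were CBP-only at 60 h, against 709 of 28736 (2.47%) over all genes.

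Genes of the cytoskeleton, adhesion and Hippo signalling had 7 of 30 at 60 h (23.3%): the Hippo effectors YAP1, WWTR1 and TEAD4, their known targets ANKRD1 and AMOTL2, and the adhesion proteins PXN and VCL. Here too genes had many regions, a median of 6, and 9 of 218 regions (4.13%) were CBP-only. Extracellular matrix genes had 7 of 37 (18.9%), with 9 of 300 regions CBP-only. Among these, TIMP3, an inhibitor of matrix proteases, had 2 regions and no other H3K27ac within 50 kb: peaks covered 2.19 and 2.11 kb in CBP cells and 0 kb in WT cells at 60 h, and 0 kb in all 4 libraries at 0 h.

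Some muscle genes were nearest to CBP-only regions of 60 h. Contractile genes had 5 of 34 at 60 h (14.7%: ACTN2, LDB3, MYH2, TMOD1 and TPM1) and 0 of 34 at 0 h. Of myogenic factors and partners, 3 of 20 (15.0%: MEF2C, MEF2D and TCF12) had one at 60 h and 0 of 20 at 0 h. In lists of this size a count of 0 at 0 h is near the 2.82% over all genes. Per region, 8 of 121 (6.61%) of the contractile genes and 5 of 137 (3.65%) of the myogenic factors were CBP-only at 60 h. The tropomyosin gene TPM1 had 3 CBP-only regions at 60 h, and the covered length around it was 6.40 and 5.16 kb in CBP cells against 4.57 and 3.35 kb in WT cells. The Z-disc gene ACTN2 had 2, which were 64.5 kb and 85.2 kb from any WT peak, with 1.67 and 1.01 kb around it in CBP cells against 0.371 and 0.407 kb in WT cells. The difference between the times in these counts was not tested, and all sets were larger at 60 h.

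Interferon and inflammatory genes had 5 of 29 at 60 h (17.2%, among them CXCL12 and IRF1), with 6 of 89 regions (6.74%), and 0 of 29 at 0 h. WNT pathway genes had 5 of 30 (16.7%), with 8 of 112 regions (7.14%), of which 4 were near TCF7L2, a transcription factor of the pathway. At 0 h, among lists with at least 20 genes nearest to any region, the highest shares were those of AP-1 and immediate early genes with 4 of 29 (13.8%: BACH2, IER3, KLF2 and MAFF), satellite cell and progenitor genes with 3 of 22 (13.6%: HES1, ITGB1 and NOTCH2), developmental transcription factors with 5 of 41 (12.2%) and TGF-beta genes with 4 of 33 (12.1%: BMP1, SMAD3, SMAD9 and TGFB2). Per region at 0 h, AP-1 and immediate early genes had 4 of 165 (2.42%) and satellite cell and progenitor genes 3 of 141 (2.13%). Developmental transcription factors had 5 of 266 (1.88%) and TGF-beta genes 5 of 273 (1.83%). Over all genes it was 302 of 28736 (1.05%). Genes of these lists had medians of 3 to 5 regions, against 2 over all genes. Cytoplasmic ribosomal protein genes had 0 of 61 at 0 h and 1 of 61 at 60 h (1.64%). The counts are small, the lists were chosen with earlier results known, and they describe nearness only.

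**Figure D3:**
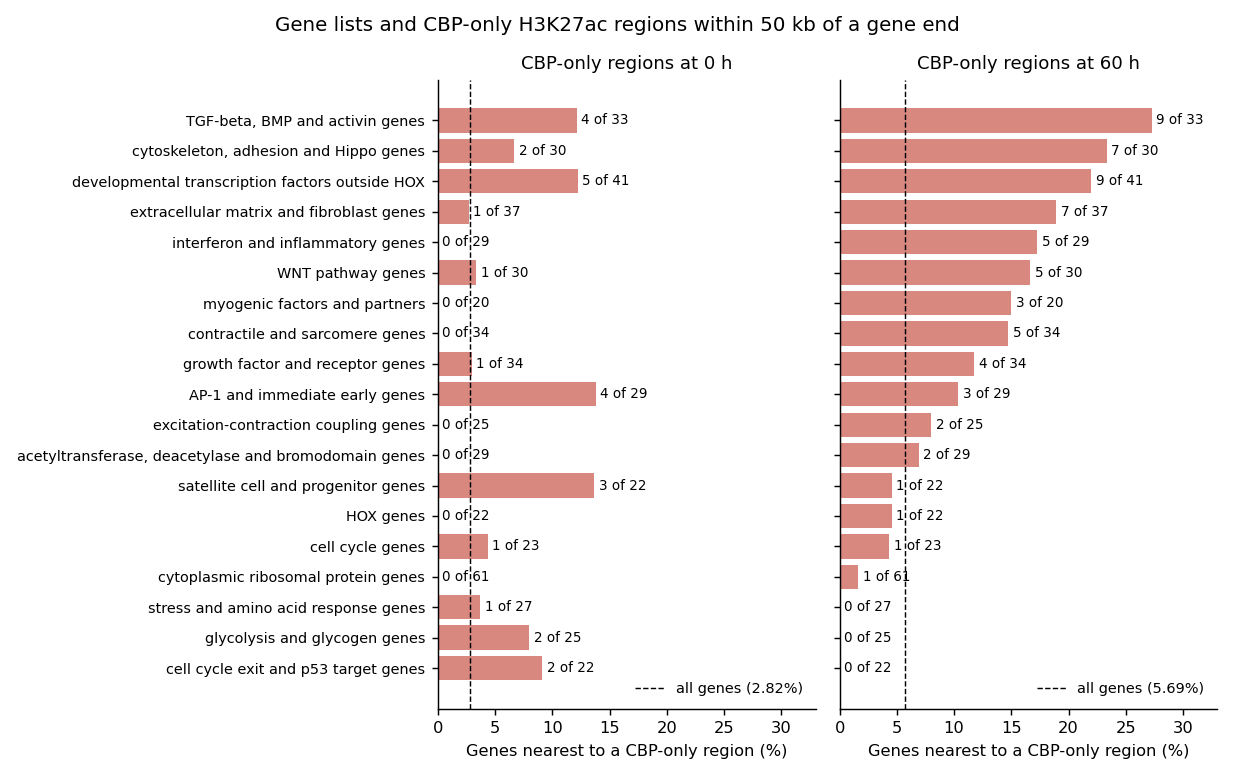
Share of the genes of each list (%, horizontal axis) that were nearest, within 50 kb, to a CBP-only H3K27ac region of 0 h or 60 h, over the genes nearest to any H3K27ac region, with the counts beside the bars and the share over all genes as a dashed line (2.82% and 5.69%), for lists with at least 20 such genes. TGF-beta, BMP and activin genes have the largest share at 60 h, 9 of 33, and AP-1 and immediate early genes at 0 h, 4 of 29.

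The nearest genes of CBP-only regions mostly had H3K4me3 near an end in untreated cells. Either end counted, since the gene table gives no strand, and promoter activity was not measured. Of 709 regions with a gene within 50 kb at 60 h, 577 (81.4%) had a nearest gene with H3K4me3 within 1 kb of an end in both WT libraries of that time. The share was 85.7% of the other shared regions. At 0 h it was 197 of 302 (65.2%), against 78.2% of the other shared regions. Of all genes, each counted once and not per region, 55.7% at 0 h and 58.3% at 60 h had such H3K4me3. A WT-only region lay within 50 kb of 153 CBP-only regions at 0 h (31.4%) and of 352 at 60 h (35.1%), against 39.3% and 48.7% of the other shared regions.

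H3K4me3 was not used to choose the regions. It overlapped a minority of them, 43 and 45 of 488 in CBP cells at 0 h (8.81% and 9.22%) against 35 and 35 in WT cells (7.17% in both). At 60 h it overlapped 208 and 207 of 1008 in CBP cells (20.6% and 20.5%) against 186 and 183 in WT cells (18.5% and 18.2%). The CBP libraries were thus above the WT libraries at both times, by 1.84 and 2.28 percentage points, but 2 libraries against 2 cannot give an exact two-sided permutation p below 0.33, the value found for both. The size of the difference moved with the processing: at 0 h it was 0.410 points with peaks counted within 1 kb (9.43% in CBP against 9.02% in WT cells), and at 60 h it was 1.19 points with peaks of −log10 q of at least 5 and 1.34 points with lists of equal length. In the other regions shared by both CBP libraries at 0 h, CBP cells had 24.3% and 24.0%, against 27.2% and 27.5% in WT cells, so the order was the opposite there. At 60 h CBP cells had 44.4% and 44.9%, against 44.9% and 44.7% in WT cells, which overlap.

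**Figure D4:**
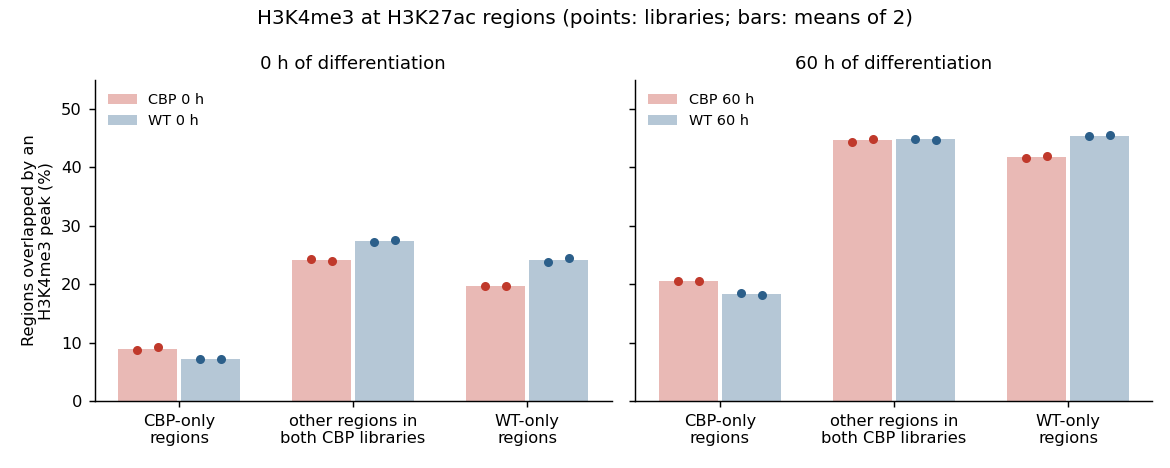
Share of H3K27ac regions overlapped by an H3K4me3 peak (%, vertical axis) in CBP (treated) and WT (untreated) cells, for CBP-only regions, other regions in both CBP libraries and WT-only regions; points are the 2 libraries and bars their mean. In CBP-only regions both CBP libraries lie above both WT libraries at each time, 8.81% and 9.22% against 7.17% in both at 0 h and 20.6% and 20.5% against 18.5% and 18.2% at 60 h.

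The length of H3K4me3 under peaks in each region widened by 1 kb on both sides was fitted with limma over all H3K27ac regions, on the log2 of base pairs plus 500, and a change was called at an adjusted p below 0.05. Only 52 of the 488 regions of 0 h and 222 of the 1008 of 60 h had the 200 bp in 2 libraries that the fit required, and most of the others had no H3K4me3 within 1 kb. At 0 h 10 were called higher in CBP cells and 7 lower, where 1.76% of all 13556 fitted regions were called higher and 36.7% lower. At 60 h 31 were called higher and 10 lower, where 6.10% and 8.93% of all were. The requirement passes regions partly for being high in 1 group, 3 in CBP and 2 in WT cells at 0 h and 20 and 7 at 60 h, so these counts are not read as a property of the regions. With 1 library left out, calls numbered 11 at 0 h without WT replicate 1, and at 60 h 16 and 18 without CBP replicate 1 or 2 and 21 and 24 without WT replicate 1 or 2.

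The H3K4me3 lists of 0 h held 15392 and 14898 peaks over 17.3 and 17.4 Mb in CBP cells. In WT cells they held 17092 and 17364 peaks over 21.8 and 22.1 Mb. The median change over all fitted regions at 0 h was −0.14, and with quantile normalization, which removes such a shift, it was 0.05. The calls among the 52 CBP-only regions fitted at 0 h then were 27 higher and 2 lower. Of all 13556 fitted regions, 2863 were then called higher and 1872 lower. These counts too are not read as a property of the regions. Of the calls without that normalization, 13 of 17 at 0 h and 22 of 41 at 60 h had bases listed in both groups. In the others 1 group had no listed base, which leaves that group without spread and the log2 change set by the 500 bp added. For those, lengths and the adjusted p are given here without a log2 change, and that p rests on the spread in the other groups and regions.

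At 0 h the region of best p was inside STX1A, a syntaxin of synaptic vesicle fusion (chr3:10987703-10988359). H3K4me3 covered 780 and 688 bp there in CBP cells and 0 and 0 bp in WT cells (adjusted p = 0.000214). With a window of 5 kb the call was lost (adjusted p = 0.253). MAATS1, which encodes a protein of cilia, had 975 and 1194 bp in CBP cells against 473 and 507 bp in WT cells (log2 change 0.68 ± 0.07 SE, adjusted p = 0.00188). At LSM4, part of the spliceosome, 750 and 798 bp stood in CBP cells against 397 and 421 bp in WT cells (adjusted p = 0.00227), a call that was lost with 5 kb (adjusted p = 0.259). The groups did not overlap at any of them, which the choice by adjusted p favours, so this is a description only.

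H3K4me3 was lower in CBP cells at 0 h beside some CBP-only regions. At TBCE, a tubulin folding cofactor, it covered 936 and 1020 bp in CBP cells and 1457 and 1354 bp in WT cells (adjusted p = 0.0041), though after quantile normalization the change was not called (adjusted p = 0.220). Beside VIM, the intermediate filament vimentin, none was listed in CBP cells against 191 and 181 bp in WT cells (adjusted p = 0.00411), and with peaks of −log10 q of at least 5 the log2 change was 0.

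At 60 h ADAMTS10, a secreted protease found with extracellular microfibrils, had a CBP-only region 4.52 kb from a gene end (chr2:70728603-70729713). H3K4me3 there covered 1434 and 1492 bp in CBP cells and 349 and 339 bp in WT cells (log2 change 1.22 ± 0.06 SE, adjusted p = 0.000136). At 0 h the same window held 245 and 257 bp in CBP cells and 248 and 237 bp in WT cells. With peaks of −log10 q of at least 5 the change at 60 h was not called (adjusted p = 0.411). CCND3, cyclin D3, had 729 and 576 bp of H3K4me3 in CBP cells at 60 h beside its region at chr7:37089357-37090130, against 0 and 0 bp in WT cells (adjusted p = 0.000533), and none in any library at 0 h. Across CCND3 and 50 kb on either side, however, H3K27ac covered 5.07 and 3.37 kb in CBP cells and 14.8 and 13.8 kb in WT cells, so the CBP-only region stood in a locus with less H3K27ac under treatment. The whole H3K27ac lists of 60 h also covered less in CBP cells, 11.7 and 9.26 Mb against 20.2 and 18.0 Mb in WT cells.

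The region 38.6 kb from NEFL, a neurofilament gene, had 1476 and 1088 bp of H3K4me3 in CBP cells at 60 h and 0 and 0 bp in WT cells (adjusted p = 0.000433). All 4 libraries of 0 h held H3K4me3 there, with 703 and 719 bp in CBP cells and 478 and 567 bp in WT cells, so the mark was listed in WT cells at 0 h and not at 60 h. EEF1E1, a component of the aminoacyl-tRNA synthetase complex, had 618 and 705 bp in CBP cells and none in WT cells (adjusted p = 0.000246). IRF1, an interferon-regulated transcription factor, had a region 13.7 kb from its end and inside SLC22A5 (chr2:134761589-134762381), with H3K27ac enriched 10.5-fold and 12.7-fold in CBP cells at 60 h. H3K4me3 covered 419 and 300 bp there in CBP cells and 0 and 0 bp in WT cells (adjusted p = 0.00287).

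The opposite was seen at MKL1, a coactivator of serum response factor, with 0 and 0 bp in CBP cells against 636 and 645 bp in WT cells (adjusted p = 0.000178), and at SCN7A, a sodium channel gene, with 0 and 0 bp against 823 and 658 bp (adjusted p = 0.000386). One of the ACTN2 regions likewise had 0 and 0 bp in CBP cells against 233 and 303 bp in WT cells (adjusted p = 0.00361).

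**Figure D5:**
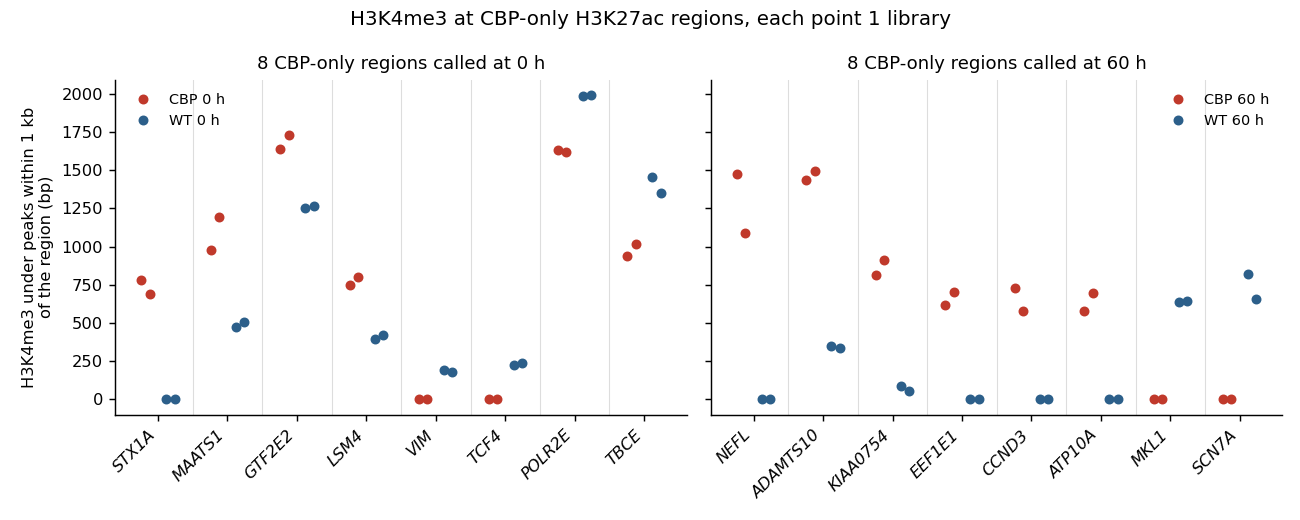
H3K4me3 under peaks within 1 kb of a CBP-only region (bp, vertical axis) in each CBP (treated) and WT (untreated) library of 0 h or 60 h, 1 point a library, for the 8 regions of best adjusted p at each time, named by the nearest gene (horizontal axis) and ordered by the difference. The groups do not overlap at any of the 16 regions, which the choice by adjusted p in this same comparison favours. At 60 h 6 are higher in CBP cells and 2 lower, where 6.10% and 8.93% of all fitted regions were called so.

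As a plain count of presence, H3K4me3 within 1 kb was in both CBP and neither WT library at 2 regions of 0 h (0.410%, against 0.115% of all regions) and at 15 of 60 h (1.49%, against 0.759%). The reverse held at 2 regions of 0 h (0.410%, against 1.94%) and 8 of 60 h (0.794%, against 1.41%). Among the 15 were TRIOBP, PSD3 and LOC102167861, whose H3K27ac regions were in all 4 CBP libraries.

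H3K27me3 hardly met the CBP-only regions. It overlapped 4 and 3 of 488 in CBP cells at 0 h and 0 and 0 in WT cells, and 9 and 6 of 1008 in CBP cells at 60 h against 3 and 0 in WT cells. The exact two-sided permutation p was 0.33 at both times, the smallest possible. H3K27me3 lists differed widely in size, with 19317 and 14723 peaks in CBP cells at 0 h against 1338 and 2660 in WT cells, and 13258 and 12336 in CBP cells at 60 h against 8922 and 6174 in WT cells. With all H3K27me3 lists cut to the length of the shortest, which drops most peaks of the others, the difference at 0 h was 0.102 percentage points (exact permutation p = 1), against 0.717 in the lists as deposited. At 60 h it was 0.149 points (exact permutation p = 0.67), against 0.595.

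In the limma fit of H3K27me3, 3 of 488 regions of 0 h and 19 of 1008 of 60 h were measured. At 0 h 2 were called higher in CBP cells and 0 lower, where 60.5% of the 258 fitted regions were called higher and 0.388% lower. At 60 h 4 were called higher and 0 lower, where 10.1% and 4.26% were. Leaving out either CBP 0 h library left 1 call at 0 h, and leaving out 1 library of 60 h left 1 or 2 at 60 h. The pair at 0 h lay near IRX4, a homeobox gene of heart development, with 1976 and 707 bp in CBP cells and 0 and 0 bp in WT cells (adjusted p = 0.00871), and near ADCYAP1R1, the receptor of the neuropeptide PACAP, with 933 and 585 bp against 0 and 0 bp (adjusted p = 0.00104). After quantile normalization neither was called (adjusted p = 0.210 and 0.884). By presence within 1 kb in both libraries of a group and neither of the other, H3K27me3 was CBP-only at 2 regions of 0 h (0.410%, against 0.395% of all regions) and WT-only at 0 (against 0.00256%). At 60 h it was CBP-only at 4 (0.397%, against 0.113%) and WT-only at 1, near GLI2 (0.0992%, against 0.0461%).

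At 60 h the regions near P2RY1, a receptor for extracellular nucleotides, and SOX6, a transcription factor that represses slow fibre genes in muscle, had short stretches. The P2RY1 region stood across a gene end and the SOX6 region 0.199 kb from one. P2RY1 had 390 and 291 bp in CBP cells and 0 and 0 bp in WT cells (adjusted p = 0.0014), and SOX6 had 547 and 302 bp against 0 and 0 bp (adjusted p = 0.0113). Leaving out either WT 60 h library ended the SOX6 call (adjusted p = 0.0698 and 0.0775). Both windows also held H3K4me3 at 60 h, 1561 and 1620 bp in CBP cells against 1437 and 1476 bp in WT cells near P2RY1, and 780 and 738 bp against 712 and 839 bp near SOX6. Both windows thus held both marks in CBP cells at 60 h, with H3K27me3 listed in CBP cells only; whether they covered the gene ends themselves was not measured.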

How the data were processed

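The data were 24 peak lists, 1 per library, called in each library separately. Per the submitters' processing notes, the tools were Trimmomatic and MACS2 2.1.0, on the build Sscrofa11.1. Aligner, calling options, control library and sample depth were not given in the sources used here. Precision from depth therefore cannot be stated. In the deposited lists the score column is the display score of MACS2 and was not used for results. The fold column, a ratio over local background, as deposited by the authors, and the −log10 p and −log10 q columns, also deposited, describe a peak within its own list and are the authors' values. The deposited offset of the summit was not used.

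Reading and merging used Python 3.11.15 (pandas 2.3.3, numpy 2.4.6). Peaks of the 8 H3K27ac lists were merged at 1 bp overlap. Genes were 19550 protein-coding genes on placed chromosomes of a RefSeq table of Sscrofa11.1 without strand, and distance is from the region to the nearer gene end. H3K4me3 and H3K27me3 lengths were fitted with limma 3.58.1 in R 4.3.3 (lmFit, eBayes with trend and robust; 8 libraries of a mark in 4 groups), for regions that had 200 bp or more in 2 or more libraries, and Benjamini-Hochberg adjustment over all regions fitted. The fit was also run on simulated data with 1 equal spread for all groups. Those data had no group without spread, so they do not bear on calls where 1 group had no listed base. Shares were compared by exact permutation tests over libraries, which listed every split of the libraries in Python. Figures were drawn with matplotlib 3.10.9.

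Named genes were, for each time, the 12 regions within 5 kb of a gene end with the best rank in their worse library, up to 8 called in each fit, up to 10 of the regions in all 4 CBP libraries, genes with at least 3 regions, and list genes; symbols starting with LOC were left out of these, and those printed were chosen after their values were seen, as were the regions given for their presence counts, for the rule's threshold and for the second ACTN2 window. The gene table matched 860 of the 895 genes in the 24 lists. The regions, the lists and the tests were chosen with earlier results of these data known. Alternatives were a stricter q, lists cut to equal length, merging within 500 bp, WT libraries of the same time only, other windows, added lengths and filters, quantile normalization, a replicate block and leaving out each library; equal lists for the mirror pattern and quantile normalization for differences between times were added after seeing the data. No sequence is shown, since no genome was used here.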

Additional observations from a re-analysis of the deposited data

Results flagged for a closer look

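In the same limma fits, the effect of treatment within 1 kb often differed between the times. For H3K4me3 the difference was called positive at 4069 and negative at 831 of all 13556 fitted regions. CBP-only regions gave 9 and 7 of 52 for those of 0 h and 82 and 9 of 222 for those of 60 h. For H3K27me3 the counts were 18 and 139 of all 258, 0 and 2 of 3, and 3 and 12 of 19. Such differences are thus not particular to CBP-only regions. They were called at the 20 CBP-only regions below, which are only among those named from the fits. Values are the CBP effect at 60 h minus that at 0 h, on the log2 scale, adjusted over all fitted regions; these regions were first chosen for an effect at 1 time, which by itself favours a difference. At 10 of the 16 H3K4me3 regions and at all 4 H3K27me3 regions at least 1 group had no listed base, so the size there depends on the 500 bp added and is no measured fold; with bases in every group were MAATS1, GTF2E2, LSM4, POLR2E, TBCE and ADAMTS10.

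For H3K4me3 at regions of 0 h the differences were −1.30 near STX1A (adjusted p = 0.000689), −0.73 near MAATS1 (adjusted p = 0.00532), −0.35 near LSM4 (adjusted p = 0.0238) and −0.32 near GTF2E2 (adjusted p = 0.00648). They were positive near TCF4 (0.55, adjusted p = 0.00639), VIM (0.43, adjusted p = 0.0176), TBCE (0.35, adjusted p = 0.0174) and POLR2E (0.24, adjusted p = 0.0125), where H3K4me3 was lower in CBP cells at 0 h.

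For H3K4me3 at regions of 60 h they were 1.58 near NEFL (adjusted p = 0.00192), 1.26 near KIAA0754 (adjusted p = 0.000805), 1.21 near EEF1E1 (adjusted p = 0.000805), 1.20 near ADAMTS10 (adjusted p = 0.000527), 1.20 near CCND3 (adjusted p = 0.00148) and 1.18 near ATP10A (adjusted p = 0.00114). Those near MKL1 (−1.19, adjusted p = 0.000612) and SCN7A (−1.31, adjusted p = 0.00115) were negative.

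For H3K27me3 the differences were −2.26 near ADCYAP1R1 (adjusted p = 0.000527) and −1.79 near IRX4 (adjusted p = 0.0292), both regions of 0 h, and 0.75 near P2RY1 (adjusted p = 0.00174) and 0.87 near SOX6 (adjusted p = 0.0129), both of 60 h. The ADCYAP1R1 window had 0 and 0 bp in CBP cells at 60 h against 453 and 462 bp in WT cells, the opposite of 0 h. The sizes of the H3K27me3 lists also differed between CBP and WT cells, more so at 0 h. With quantile normalization, added after seeing the data for these differences, the value near IRX4 was −0.36 and no longer called (adjusted p = 0.268), and that near ADCYAP1R1 was −0.99 (adjusted p = 0.0187); those near P2RY1 (0.72) and SOX6 (0.87) were still called.

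With the same normalization 13 of the 16 H3K4me3 differences were still called and none changed sign. Those near TCF4 (0.28, adjusted p = 0.0653), POLR2E (0.065, adjusted p = 0.385) and TBCE (0.094, adjusted p = 0.463) were not, and smaller values stood near EEF1E1 (0.47), ATP10A (0.45), CCND3 (0.46), KIAA0754 (0.70) and NEFL (1.01).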

How the results depend on the processing

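How many regions appear only under the inhibitor depends on the lists. With peaks of −log10 q of at least 5 the rule gave 160 regions at 0 h and 398 at 60 h, and 39 and 140 of the original regions were among them. With lists of equal length it gave 1557 at 0 h and 1099 at 60 h, of which 394 and 266 were original, so at 60 h 26.4% remained. With WT libraries of the same time only, 788 met it at 0 h. Leaving out 1 library gave 489 to 1062 regions at 0 h and 1008 to 3303 at 60 h: without CBP 0 h replicate 2 there were 1062, without CBP 60 h replicate 1 2029 and without replicate 2 3303. Leaving out a CBP library of that time loosens the rule to 1 CBP library, so a higher count there follows from the rule. Counts of H3K4me3 calls (17 and 41) were 9 and 23 in the region itself, 26 and 79 in 5 kb, and 29 at 0 h after quantile normalization. Leaving out 1 library gave 11 to 17 at 0 h (11 without WT replicate 1) and 16 to 39 at 60 h (16 and 18 without CBP replicate 1 or 2, 21 and 24 without WT replicate 1 or 2). Counts of H3K27me3 calls (2 and 4) were 7 and 9 in 5 kb, 0 and 0 at −log10 q of at least 5, 0 at 0 h after quantile normalization, 1 to 2 (1 without either CBP library) and 1 to 4 with 1 library left out. The difference in H3K27me3 share at 60 h was 0 at −log10 q of at least 5, and with lists of equal length those at 0 h and 60 h were 0.102 and 0.149. Regions of the mirror pattern numbered 1487 and 1661 with lists of equal length, an alternative added after seeing the data. Apart from that looser rule, the cause of these shifts was not tested. Every other alternative kept these counts within 1.5 times, and no share or fitted named effect changed sign. Of 21 named effects 12 lost their call in at least 1 setting while still fitted. Effects that dropped out of a fit are not counted among the 12. With peaks of −log10 q of at least 5 no named H3K27me3 effect was fitted, and some named H3K4me3 effects were not.

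With a replicate block the H3K4me3 calls were 16 and 33, and the H3K27me3 calls 2 and 4. Correlations between groups of the deviations of same-numbered libraries were −0.029 to 0.027 for H3K4me3 and −0.047 to 0.201 for H3K27me3, where 3 of 6 were over 0.1. Same-numbered H3K4me3 libraries thus showed no common deviation in this measure. Whether the libraries of either mark are paired is not settled by these values.

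With 2 libraries a group, no read depth and H3K27ac lists of unequal length, a missing WT peak means only that none was listed. Peaks of CBP-only regions are mostly weak, so absence in WT libraries and weakness near the calling threshold cannot be told apart here.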
